A study of Mus musculus with 9 samples.

Results

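The genes described here are the nuclear-encoded subunits of the oxidative phosphorylation (OXPHOS) machinery, taken by symbol from a table of 17943 mouse genes. A gene was included when its symbol was that of a subunit of complex I (Nduf genes, assembly factors left out), complex II (Sdha to Sdhd), complex III (Uqcr genes and Cyc1), complex IV (Cox4 to Cox8) or complex V (Atp5 genes). This gave 84 genes, with 38 for complex I, 4 for complex II, 9 for complex III, 16 for complex IV and 17 for complex V. The rule uses symbols alone and no measured value, although it was set with earlier results of these data known, and all 84 genes passed the filter on low counts that left 16426 genes for testing.

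Complexes I and II pass electrons from NADH and succinate to ubiquinone, complex III passes them on to cytochrome c, and complex IV to oxygen. The proton gradient that complexes I, III and IV build drives ATP synthesis by complex V. A few core subunits are encoded by mitochondrial DNA and all others by nuclear genes, and several complex IV subunits have alternative isoforms of restricted expression, among them heart and skeletal muscle forms.

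RNA sequencing of skin was compared between 5 WT mice and 4 Supt6-KO mice, in which the gene for the histone chaperone and transcription elongation factor SPT6 was deleted. By the methods of the study, the Supt6-KO mice carried K14-CreERT and Supt6 fl/fl and were given tamoxifen, while control animals were Supt6 fl/fl and were given corn oil. The labels call the controls wild-type and the others Supt6 knockdown, although the sample titles of the latter read Supt6 KO. Skin was taken 10 days after the last injection, and the labels name ear where the study describes dorsal skin. The counts summed to 29627341 to 30491197 per WT mouse and to 30597189 to 30967107 per Supt6-KO mouse. Both groups carry floxed Supt6, and the effects of Cre, of tamoxifen and of the deletion cannot be told apart in this comparison. The K14 promoter is active in keratinocytes, while the libraries hold RNA of whole skin. In such bulk samples fewer cells of a type and less RNA per cell cannot be told apart.

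Supt6 was at 74.5, 56.6, 63.6, 91.1 and 96.7 CPM (counts relative to library size, scaled by edgeR's TMM factors) in the WT mice and at 28.6, 24.1, 21.9 and 28.4 CPM in the Supt6-KO mice. Every Supt6-KO mouse was below every WT mouse. The log2 fold change was -1.57 (SE 0.18, adjusted p = 1.3e-05), and it was -2.26 when the counts were scaled by library totals alone and -0.80 when the trend of level on transcript length, described below, was removed. This and every other adjusted p is from edgeR's quasi-likelihood test, with the Benjamini-Hochberg method applied over the 16426 genes. Where a mouse was left out, it was applied over the genes tested in that fit.

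Supt6-KO mouse 4 stood apart from the other Supt6-KO mice in marker genes that are not OXPHOS genes. Its summed level of 7 suprabasal keratinocyte markers was 20727 CPM against 40776 to 43332 CPM in the others and 21392 to 23421 CPM in WT mice. That of 7 basal keratinocyte markers was 14105 CPM against 5801 to 8402 CPM in the others and 11643 to 13313 CPM in WT mice. Its 8 proliferation markers summed to 821 CPM against 192 to 309 CPM in the others and 119 to 212 CPM in WT mice. In the test over all 9 mice, 6 of the 7 basal markers fell, and 3 of the suprabasal markers rose and 1 fell. Among all genes tested, 34.1% rose and 36.8% fell. The most abundant genes of the 2 lists were Krt14, the gene of keratin 14, and Krt10. Krt14 was the 1 basal marker that did not fall, with a log2 fold change of 0.66 that was not called. The part of keratinocyte composition in the OXPHOS levels was not tested. Counts of OXPHOS genes are therefore also given without this mouse.

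Most OXPHOS genes were more abundant in Supt6-KO skin. Of the 84 genes, 73 rose and 3 fell at an adjusted p under 0.05, while among all genes tested 34.1% rose and 36.8% fell. With a change of at least 2-fold required as well, 62 rose and 1 fell, beside 20.9% and 24.9% of all genes. In 71 of the 84 genes every Supt6-KO mouse was above every WT mouse, and in 3 every Supt6-KO mouse was below, where the shares over all genes were 28.9% and 31.8%. The median log2 fold change was 1.48, against -0.07 over all genes tested. Without Supt6-KO mouse 4, 73 rose and 4 fell, with a median of 1.54.

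**Figure D1:**
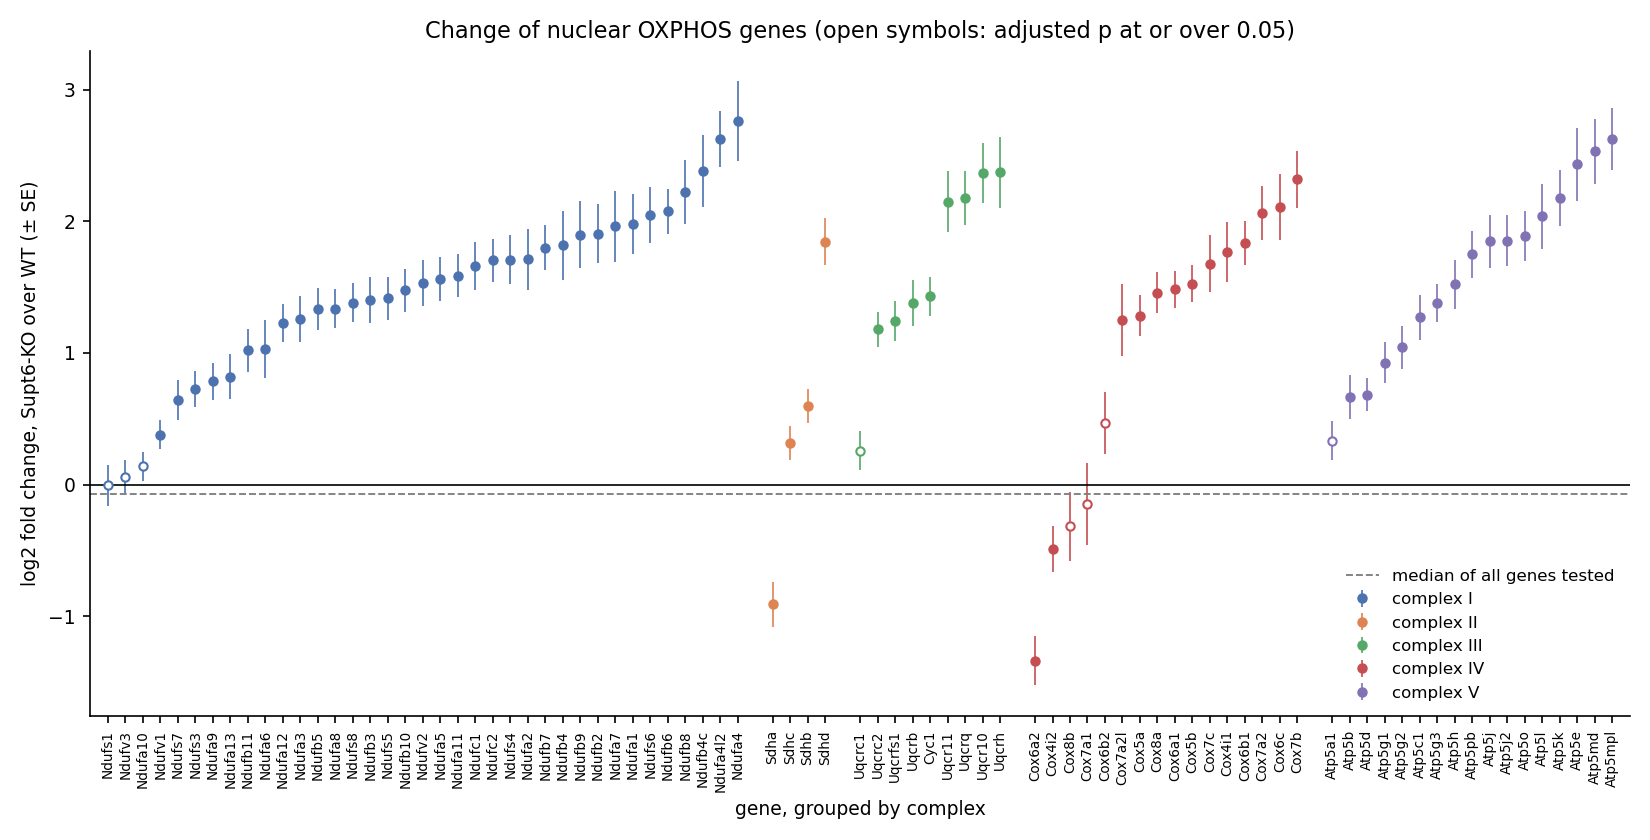
Log2 fold change (Supt6-KO over WT, y axis, with its standard error) of 83 of the 84 OXPHOS genes, grouped by complex and ordered by size along the x axis. Filled symbols passed an adjusted p under 0.05, open symbols did not, and the dashed line is the median of all genes tested, -0.07. Sdha in complex II and the isoforms Cox6a2 and Cox4i2 in complex IV are the filled symbols below 0.

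The summed level of the 84 genes was 9274, 11145, 11058, 8706 and 7726 CPM in the WT mice and 22555, 28766, 29051 and 20609 CPM in the Supt6-KO mice. The groups did not overlap, and mouse 4 was the lowest of the Supt6-KO mice. As a share of each library's counts, which uses no scaling factor, the 84 genes took 1.02% to 1.35% in WT mice and 1.76% to 2.05% in Supt6-KO mice. The level behind these sums differed widely between members, since in WT mice the deposited length-normalised values (TPM) ranged from 4.87 for Cox6b2 to 1614 for Ndufa4.

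**Figure D2:**
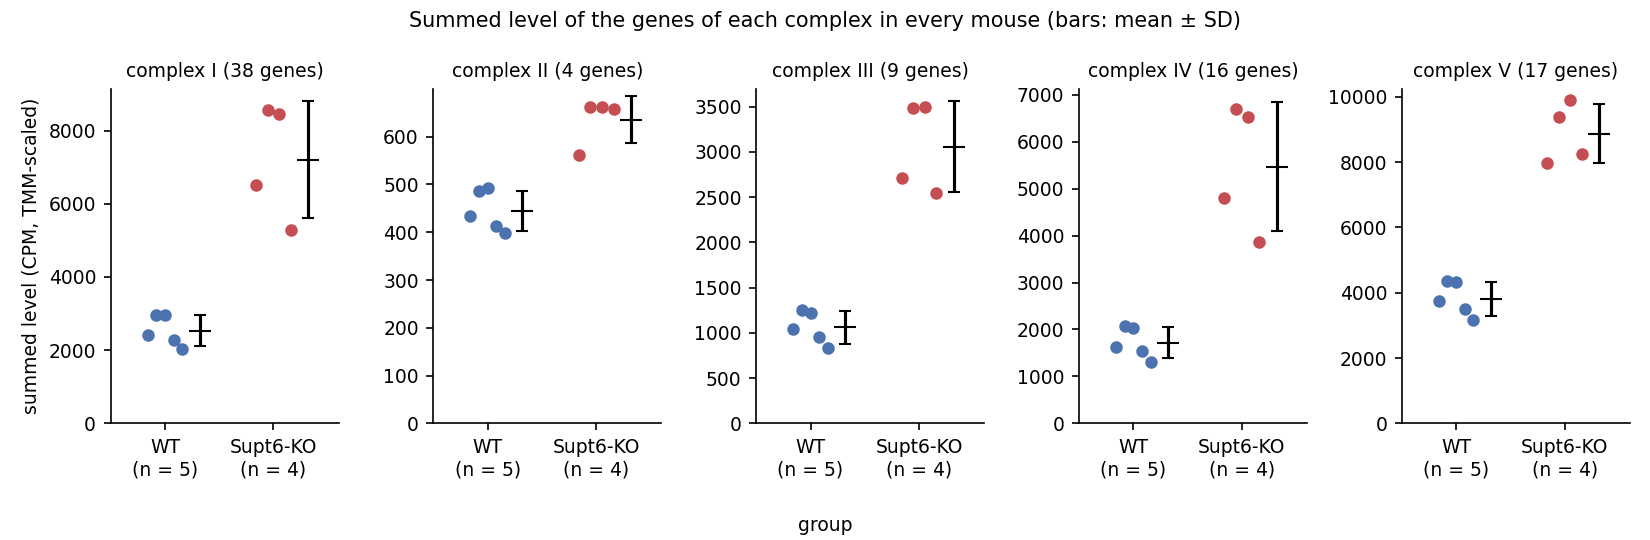
Summed level (CPM, TMM-scaled, y axis from 0) of the genes of each complex in every mouse, with the mean and SD of the 5 WT and 4 Supt6-KO mice beside the points. The Supt6-KO mice lie above all WT mice in each panel. For complex II, at 398 to 492 CPM in WT and 561 to 662 CPM in Supt6-KO mice, this turned without scaling factors, since its share of the counts was 0.0512% to 0.0600% in WT and 0.0438% to 0.0598% in Supt6-KO mice, with 3 of the 4 below all WT mice.

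The size of these changes depended on how the libraries were scaled. The TMM factors were 1.198 to 1.315 in WT and 0.674 to 0.91 in Supt6-KO mice. Scaled by library totals alone, the median of all genes shifted to -0.76 and that of the OXPHOS genes to 0.77, so the distance between the medians was 1.55 with TMM factors and 1.53 with library totals. Under library totals 59 OXPHOS genes rose and 9 fell, while 16.9% of all genes rose and 54.6% fell. All 59 were among the 73 that rose with TMM factors.

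Changes also followed transcript length, and OXPHOS transcripts are short. Their median effective length, derived from the deposited counts and TPM, was 424 bases, against 2730 bases over all genes with such a length. Among genes of at most 250 bases the median log2 fold change was 1.96 over 230 genes of any kind and 1.97 over the 24 OXPHOS genes. From 250 to 500 bases the medians were 1.43 over 449 genes and 1.49 over 25 OXPHOS genes. From 500 to 1000 bases they were 1.00 over 1289 genes and 1.26 over 16 OXPHOS genes. From 1000 to 2000 bases the median was 0.46 over 3488 genes and 1.18 over 15 OXPHOS genes, and from 2000 to 4000 bases -0.10 over 5764 genes and 0.16 over 4. The medians of the OXPHOS genes were thus 0.02, 0.05, 0.26, 0.72 and 0.26 above those of all genes in these 5 classes of length, from short to long. The last value rests on 4 genes, Ndufa11 at 1.59, Atp5a1 at 0.33, Ndufs1 at -0.01 and Sdha at -0.91. The reference transcript of Ndufa11 had 545 bases, against a derived effective length of 2659 bases. Among 4736 genes above 4000 bases, where no OXPHOS gene lies, the median log2 fold change was -0.77. Across genes, which are not independent replicates and share the same 9 libraries, Spearman's rho between length and log2 fold change was -0.45 over the 84 OXPHOS genes and -0.41 over 15956 genes.

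**Figure D3:**
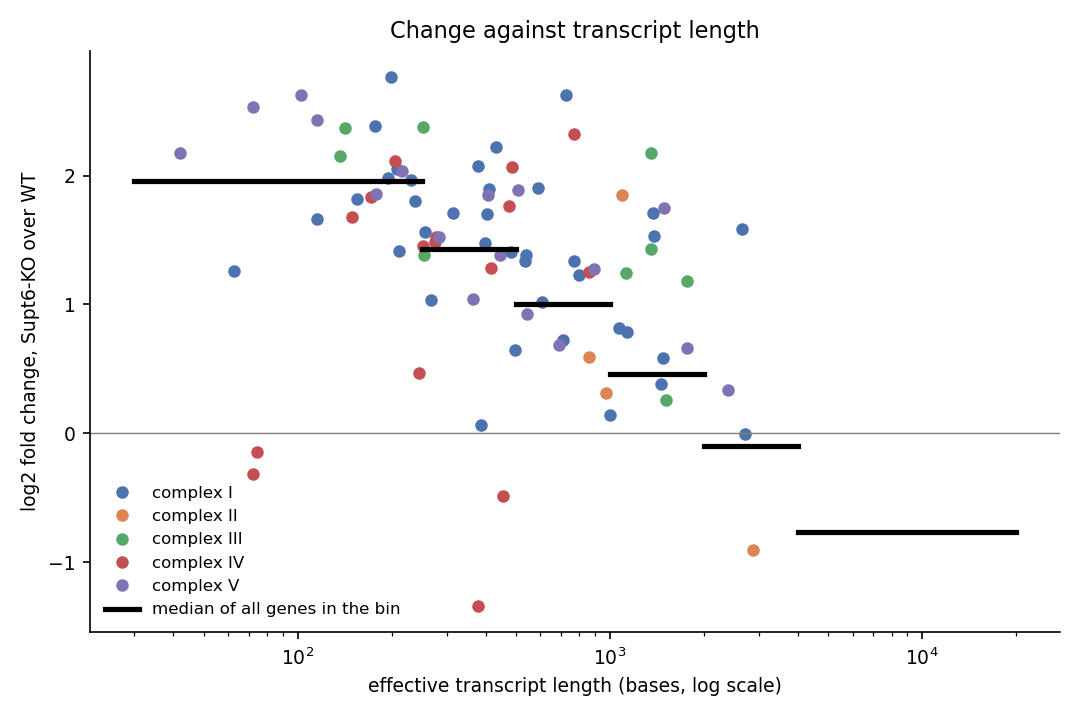
Log2 fold change (Supt6-KO over WT, y axis) against effective transcript length in bases (x axis, log scale) for the 84 OXPHOS genes, coloured by complex, with the median of all genes tested in 6 length bins as black bars. The outer bars are drawn to an arbitrary end of the open bins. The bars fall from 1.96 to -0.77, the medians of the OXPHOS genes lie 0.02 to 0.72 above them, and the 5 alternative isoforms of complex IV and Ndufv3 lie well below.

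When the trend of level on length was removed within each library, the median of the OXPHOS genes was 0.19 and that of all genes -0.05. Then 34 OXPHOS genes rose and 17 fell, while 32.6% of all genes rose and 34.5% fell. All 34 were among the 73 above. This correction removes any change that short transcripts share, whether it arose in the tissue or in the libraries. Effective lengths could be derived for Supt6-KO mouse 4 only, because TPM were deposited for 6 of the 9 mice, and in that mouse they were 0.943 of the WT median for genes of at most 250 bases. RNA quality and fragment size per mouse are not given in the sources used here, and their part in the trend was not tested.

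**Figure D4:**
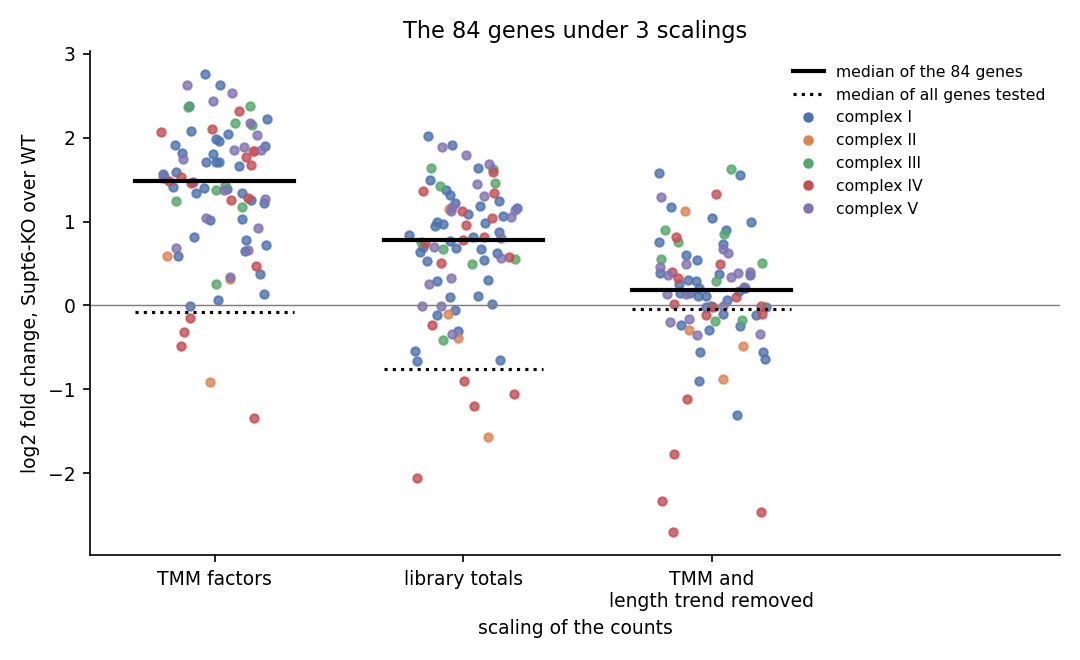
Log2 fold change (Supt6-KO over WT, y axis) of the 84 OXPHOS genes under TMM factors, library totals, and TMM factors with the length trend removed (x axis), each point a gene. Solid bars mark the median of the 84 genes (1.48, 0.77 and 0.19) and dotted bars the median of all genes tested (-0.07, -0.76 and -0.05).

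The counts for single complexes and lists that follow are with TMM factors unless another scaling is named. They stand beside the shares of all genes given above, which were 34.1% higher and 36.8% lower with TMM factors, 16.9% and 54.6% with library totals, and 32.6% and 34.5% with the length trend removed.

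In complex I, the NADH dehydrogenase, 35 of 38 genes rose and none fell in edgeR's test, with 0 lower at an unadjusted p under 0.05 and 0 lower in DESeq2. With library totals 27 rose and 3 fell, and with the length trend removed 14 rose and 7 fell. The 3 that were not called with TMM factors were Ndufs1, Ndufv3 and the accessory subunit Ndufa10, whose log2 fold change was 0.14 (SE 0.11, adjusted p = 0.28 in edgeR's test). Ndufa10 was lower with library totals, at -0.55 (adjusted p = 0.0053 in edgeR's test), and with the length trend removed, at -0.64 (adjusted p = 0.0014 in edgeR's test). The median log2 fold change was 1.503, or 0.79 with library totals and 0.19 with the length trend removed. The 7 nuclear-encoded core subunits, which carry the flavin and iron-sulfur clusters, had a median of 0.64, and 6 of them rose. The median over the remaining 31 subunits was 1.66, and 29 of these rose. The core subunits were also longer, at a median of 1383 bases against 399, and with the length trend removed the medians were -0.02 and 0.21.

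Ndufa4, counted here by its symbol although the protein is known as a subunit of complex IV, had the largest log2 fold change of the 84 genes with TMM factors. It was at 171, 235, 240, 150 and 125 CPM in WT mice and at 1154, 1687, 1545 and 613 CPM in Supt6-KO mice. The groups were far apart, with mouse 4 again the lowest Supt6-KO mouse. Its log2 fold change was 2.76 (SE 0.30, adjusted p = 1.1e-05 in edgeR's test), and 1.05 with the length trend removed. Ndufa4l2, a paralogue known to be induced in hypoxia, was at 14.8, 16.9, 11.5, 14.5 and 17.5 CPM in WT and at 61.2, 84.1, 136 and 89.8 CPM in Supt6-KO mice. Its log2 fold change of 2.62 (SE 0.21, adjusted p = 1.7e-06 in edgeR's test) was 1.58 with the length trend removed. Ndufb4c rose by a log2 fold change of 2.38, but it is a near copy of Ndufb4, and reads may have been divided between the 2 genes.

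Ndufs1, the largest core subunit of complex I, showed no rise. It was at 99.3, 96.6, 97.8, 94.2 and 98.2 CPM in WT mice and at 83.3, 78.1, 90.4 and 135 CPM in Supt6-KO mice. In 3 of the 4 Supt6-KO mice it was below all WT mice, and in mouse 4 above them. The log2 fold change was -0.01 (SE 0.15, adjusted p = 0.97 in edgeR's test), and -0.22 (adjusted p = 0.043 in the same test) without mouse 4. With library totals it was -0.67 (adjusted p = 0.017 in edgeR's test), a call of lower. Ndufv3, an accessory subunit beside the flavoprotein, was at 54.8 to 68.6 CPM in WT and 51.0 to 73.8 CPM in Supt6-KO mice, with a log2 fold change of 0.06 (SE 0.13). With library totals Ndufv3 was called lower, at -0.65 (adjusted p = 0.00028 in edgeR's test). It is short, and with the length trend removed it was called lower at -1.30 (adjusted p = 2.2e-06 in edgeR's test). The core subunit Ndufv1, which binds NADH, rose by 0.38 (SE 0.11, adjusted p = 0.0093 in edgeR's test) but was at -0.31 with library totals. Among other core subunits, the log2 fold changes were 0.73 for Ndufs3, 0.64 for Ndufs7, 1.38 for Ndufs8 and 1.53 for Ndufv2. Ndufs3 and Ndufs7 were at 0.02 and -0.05 with library totals, and with the length trend removed both were called lower, at -0.30 (adjusted p = 0.020 in edgeR's test) and -0.55 (adjusted p = 0.0028 in edgeR's test).

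Complex II, succinate dehydrogenase, had the lowest median of the complexes, at 0.45, and this median was below 0 with library totals (-0.24) and with the length trend removed (-0.39). Sdha, its flavoprotein and catalytic subunit, was at 168, 161, 168, 170 and 178 CPM in WT mice and at 84.6, 70.5, 76.2 and 129 CPM in Supt6-KO mice. No Supt6-KO mouse reached the WT range. Its log2 fold change was -0.91 (SE 0.17, adjusted p = 0.00053 in edgeR's test), and it was -1.56 with library totals and -0.87 with the length trend removed.

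The membrane anchor Sdhd moved the other way. It was at 70.5, 95.8, 94.8, 66.8 and 58.8 CPM in WT and at 223, 312, 308 and 270 CPM in Supt6-KO mice, without overlap. The log2 fold change was 1.85 (SE 0.18, adjusted p = 4.3e-06 in edgeR's test) and stayed above 1 in both other scalings. Sdha had the longest effective length of the OXPHOS genes, 2885 bases, whereas Sdhd had 1092 bases. The iron-sulfur subunit Sdhb had a log2 fold change of 0.59 (SE 0.13) and the anchor Sdhc of 0.31 (SE 0.13, adjusted p = 0.0495 in edgeR's test), a call that was lost in 6 of the 9 cases with 1 mouse left out. Both were below 0 with library totals, where Sdhc was called lower, at -0.38 (adjusted p = 0.020 in edgeR's test). With the length trend removed both were called lower, Sdhb at -0.29 (adjusted p = 0.027 in edgeR's test) and Sdhc at -0.49 (adjusted p = 0.00082 in edgeR's test).

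In complex III, the cytochrome bc1 complex, 8 of 9 genes rose, with a median of 1.43. This was the complex with the highest median once the length trend was removed, 0.55, and 7 of the genes then rose. Uqcrh, the hinge protein, was at 126, 169, 169, 114 and 100 CPM in WT mice and at 595, 965, 867 and 384 CPM in Supt6-KO mice, a log2 fold change of 2.37 (SE 0.27, adjusted p = 1.4e-05 in edgeR's test). The small subunit Uqcr10 likewise had a log2 fold change of 2.37 (SE 0.23). Cytochrome c1 (Cyc1) had a log2 fold change of 1.43 (SE 0.15), the Rieske protein Uqcrfs1 1.24 (SE 0.15) and the core protein Uqcrc2 1.18 (SE 0.13). These were below Uqcrh and Uqcr10 with TMM factors, but with the length trend removed Cyc1 was at 0.90 and Uqcrc2 at 0.86, above Uqcrh at 0.76 and Uqcr10 at 0.51, while Uqcrfs1 was at 0.55. The other core protein, Uqcrc1, was at 237, 267, 254, 231 and 195 CPM in WT and at 305, 230, 257 and 339 CPM in Supt6-KO mice. Its groups overlapped, and its log2 fold change was 0.26 (SE 0.15, adjusted p = 0.14 in edgeR's test).

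Complex IV, cytochrome c oxidase, was split by isoform. Of its 16 genes 11 rose and 2 fell, and the 5 others than the 11 were all alternative isoforms: Cox6a2, Cox4i2, Cox8b, Cox7a1 and Cox6b2. With library totals 10 rose and 4 fell, and with the length trend removed 4 rose and 5 fell, the 5 being these same isoforms. Cox4i1, the common form of subunit 4, was at 347, 478, 439, 338 and 281 CPM in WT mice and at 1141, 1664, 1489 and 832 CPM in Supt6-KO mice. Its log2 fold change was 1.77 (SE 0.23, adjusted p = 3.6e-05 in edgeR's test). The largest log2 fold changes of the complex with TMM factors were 2.32 (SE 0.22) for Cox7b and 2.11 (SE 0.25) for Cox6c, both small accessory subunits. With the length trend removed Cox7b was at 1.33, while Cox6c was at 0.40, below Cox7a2 at 0.82 and Cox4i1 at 0.50. The median of 1.47 went to -0.02 with the length trend removed.

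Cox6a2, the heart and skeletal muscle form of subunit 6a, was at 42.8, 48.9, 53.7, 37.1 and 32.1 CPM in WT mice and at 15.2, 21.1, 18.4 and 13.2 CPM in Supt6-KO mice. All Supt6-KO mice were below all WT mice. The log2 fold change was -1.34 (SE 0.19, adjusted p = 6.0e-05 in edgeR's test), and -2.06 with library totals. The other muscle forms, Cox8b and Cox7a1, overlapped between the groups with TMM factors, with log2 fold changes of -0.32 (SE 0.26) and -0.15 (SE 0.31). With library totals both were called lower, at -1.05 (adjusted p = 0.0013 in edgeR's test) and -0.90 (adjusted p = 0.011 in edgeR's test). Cox4i2, a subunit 4 form known from lung and from hypoxia, was at 3.299 to 4.28 CPM in WT and 2.26 to 3.17 CPM in Supt6-KO mice and fell by 0.49 on the log2 scale (SE 0.17, adjusted p = 0.025 in edgeR's test), a call that was lost without Supt6-KO mouse 1 (adjusted p = 0.056) or WT mouse 1 (adjusted p = 0.066). Cox6b2, the testis form of subunit 6b, was under 1.1 CPM in every mouse.

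Within a library, the balance of isoforms can be read without any scaling factor. Cox6a2 had 35.1% to 44.5% as many counts as Cox6a1 in WT mice and 4.92% to 6.68% in Supt6-KO mice. For Cox8b against Cox8a the range was 9.18% to 12.5% in WT and 2.06% to 3.70% in Supt6-KO mice. For Cox7a1 against Cox7a2 it was 6.96% to 9.10% and 1.13% to 2.39%. The groups did not overlap in any of these pairs, nor for Cox4i2 against Cox4i1, at 1.07% ± 0.241 (SD, n = 5) and 0.225% ± 0.035 (SD, n = 4). The same held for Cox6b2 against Cox6b1, at 0.512% ± 0.172 (SD, n = 5) and 0.196% ± 0.0268 (SD, n = 4). Ndufa4l2 against Ndufa4, at 8.86% ± 3.42 (SD, n = 5) and 8.43% ± 4.48 (SD, n = 4), overlapped. Such ratios still depend on length where the 2 isoforms differ in it, as with Cox7a1 at 74.2 bases and Cox7a2 at 487 bases.

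**Figure D5:**
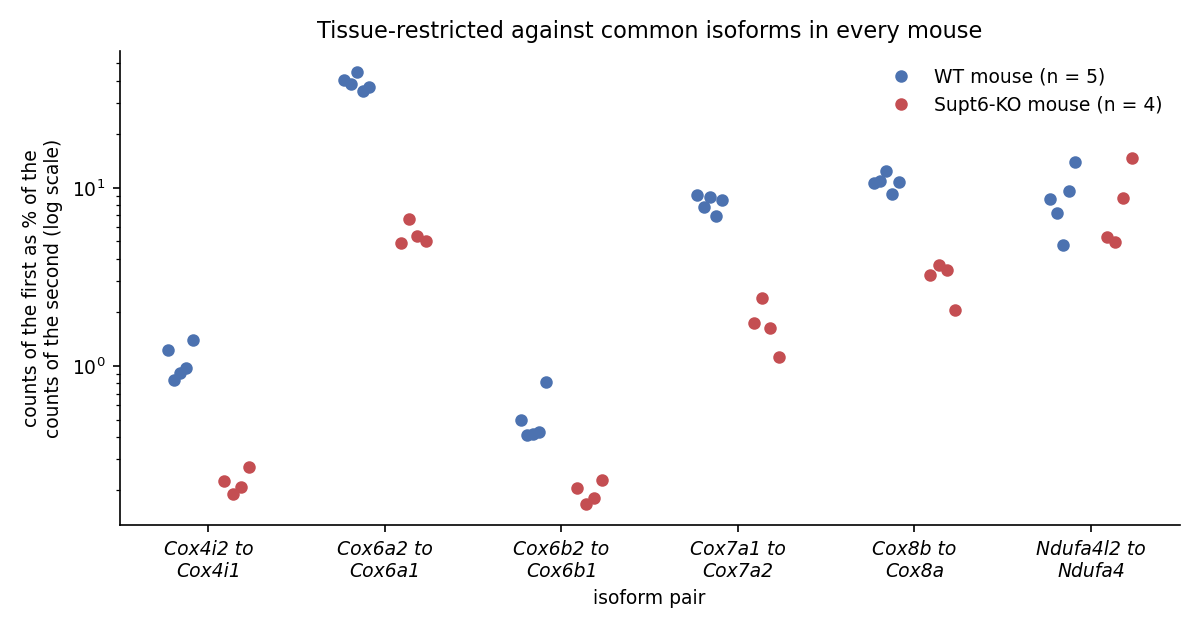
Counts of an alternative isoform as a percentage of the counts of its common counterpart (y axis, log scale) for 6 pairs (x axis) in each of the 5 WT and 4 Supt6-KO mice. The Supt6-KO mice lie below all WT mice in the 5 complex IV pairs and overlap with them in the Ndufa4l2 pair, where 1 Supt6-KO mouse, at 14.6%, is above all WT mice.

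Skeletal muscle markers were lower as well. Of 15 markers, 14 fell and none rose in edgeR's test (0 higher at an unadjusted p under 0.05 or in DESeq2), their median log2 fold change being -2.66, and none was at 0 in any mouse. Their summed level was 6916, 7137, 7692, 5770 and 6173 CPM in WT mice and 1513, 2074, 1784 and 1251 CPM in Supt6-KO mice. The one with the most counts was Acta1, skeletal muscle actin, with a log2 fold change of -2.66 (SE 0.18). The largest fall was that of Myh4, a fast myosin, at -4.38 (SE 0.16), and Mylpf, a myosin light chain, had -0.36 (SE 0.25, adjusted p = 0.21 in edgeR's test). Mylpf was called lower with library totals, at -1.11 (adjusted p = 0.00040 in edgeR's test). The same held with the length trend removed, at -1.64 (adjusted p = 4.6e-06 in edgeR's test). Against the summed counts of the 15 markers, Cox6a2 was 0.633% ± 0.0706 (SD, n = 5) in WT and 1.03% ± 0.0217 (SD, n = 4) in Supt6-KO mice. The same share was 0.167% ± 0.0239 (SD, n = 5) and 0.540% ± 0.102 (SD, n = 4) for Cox8b. With the length trend removed, the log2 fold changes were -2.71 for Cox6a2, -2.46 for Cox8b and -2.33 for Cox7a1, and the median of the muscle markers was -2.95. The part of muscle in the levels of the other OXPHOS genes was not tested.

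Complex V, the ATP synthase, had the highest median of the complexes with TMM factors, 1.75, and 16 of its 17 genes rose. With library totals 13 rose, and with the length trend removed 8 rose and 2 fell. With TMM factors every Supt6-KO mouse was above every WT mouse in all 17 genes, beside 28.9% of all genes, but with library totals the groups overlapped in 5 of them, Atp5a1, Atp5b, Atp5d, Atp5g1 and Atp5g2. The largest changes with TMM factors were in Atp5mpl and Atp5md, small subunits of the membrane part. Atp5mpl was at 37.7, 47.9, 45.0, 33.5 and 30.2 CPM in WT mice and at 196, 278, 333 and 152 CPM in Supt6-KO mice, with a log2 fold change of 2.63 (SE 0.23, adjusted p = 2.7e-06 in edgeR's test). Atp5md had a log2 fold change of 2.53 (SE 0.25), and Atp5e, the epsilon subunit, of 2.43 (SE 0.28). With the length trend removed Atp5mpl, Atp5md and Atp5e were at 0.62, 0.39 and 0.46, below Atp5pb at 1.29.

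With TMM factors the large catalytic subunits Atp5a1 and Atp5b had the smallest log2 fold changes of the complex. With library totals Atp5a1 was still the lowest, at -0.34, and only Atp5d, at -0.0090, lay between it and Atp5b. The order did not hold with the length trend removed, where Atp5a1 was at 0.22, Atp5b at 0.34 and Atp5d at -0.35. Atp5b, the beta subunit, was at 997, 1085, 1077, 924 and 857 CPM in WT mice and at 1424, 1306, 1530 and 2001 CPM in Supt6-KO mice. Its log2 fold change was 0.66 (SE 0.17, adjusted p = 0.0038 in edgeR's test), and it was -0.0019 with library totals. Atp5a1, the alpha subunit, was at 775, 831, 795, 753 and 683 CPM in WT and at 932, 907, 852 and 1180 CPM in Supt6-KO mice. The groups did not overlap with TMM factors, but the log2 fold change of 0.33 (SE 0.15) did not pass the test (adjusted p = 0.057 in edgeR's test). In both genes mouse 4 was the highest Supt6-KO mouse, the reverse of its place for Atp5mpl and Ndufa4. Over the 17 genes Spearman's rho between length and log2 fold change was -0.84, a description across genes of 1 complex. Atpif1, the inhibitor of the ATP synthase, lies outside the symbols used here and had a log2 fold change of 1.99 (SE 0.22).

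The place of mouse 4 followed length. In the 49 OXPHOS genes of up to 500 bases, the median log2 difference from the WT mean was 1.53, 1.96, 2.04 and 1.29 in Supt6-KO mice 1 to 4. In the 19 genes above 1000 bases, with Ndufa11 among them by its derived length, it was 0.73, 1.03, 1.16 and 1.02. Mouse 4 was thus the lowest for short OXPHOS genes but not for long ones. Among WT mice, mouse 5 was the lowest and mice 2 and 3 the highest in the summed level of each complex.

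Genes that serve the complexes without being part of them rose in part. Of 52 assembly factors tested, 42 rose and 1 fell, the median log2 fold change being 1.27. With library totals 28 rose and 8 fell, with a median of 0.56, and with the length trend removed 32 rose and 6 fell. The largest change with TMM factors was 2.88 (SE 0.28) for Uqcc2, which assists complex III assembly. Of 14 genes for cytochrome c and coenzyme Q synthesis, 10 rose and 3 fell, with a median of 0.65, whereas 6 rose and 5 fell with library totals, with a median of -0.0061. Cytochrome c itself (Cycs) had a log2 fold change of 1.49 (SE 0.19), whereas Coq8a, an atypical kinase of coenzyme Q synthesis, had -1.75 (SE 0.17). These 2 lists had median effective lengths of 1187 and 1620 bases.

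For the pathways that feed electrons to the chain, the counts of calls depended on the scaling, as they did over all genes, of which 34.1% rose and 36.8% fell with TMM factors and 16.9% rose and 54.6% fell with library totals. Of 17 genes of the tricarboxylic acid cycle and pyruvate dehydrogenase, 6 rose and 4 fell with TMM factors, with a median of 0.26. With library totals 9 of the 17 fell and 0 rose in edgeR's test, with 1 higher at an unadjusted p under 0.05 and a median of -0.42, where DESeq2 with its own size factors gave 8 higher and 4 lower. The largest fall was in Ogdh, a subunit of the oxoglutarate dehydrogenase complex, at -1.69 (SE 0.18), citrate synthase (Cs) was at -0.62 (SE 0.12), and Suclg1, of succinyl-CoA ligase, was at 1.00 (SE 0.12). Of 18 genes of fatty acid oxidation, 5 rose and 6 fell, and 2 rose and 13 fell with library totals. The medians were 0.04 and -0.66, and with TMM factors the values ran from -2.35 (SE 0.14) for Cpt1b, the muscle carnitine palmitoyltransferase, to 1.16 (SE 0.16) for Etfa, an electron transfer flavoprotein subunit. Of 22 glycolysis genes, 9 rose and 7 fell, and 5 rose and 9 fell with library totals. The medians were 0.35 and -0.30, and with TMM factors the values ran from -2.86 (SE 0.13) for Pfkm, the muscle phosphofructokinase, to 2.305 (SE 0.25) for Pgk1, phosphoglycerate kinase. With the length trend removed, 4 rose and 5 fell in the first list, 2 and 11 in fatty acid oxidation, and 8 and 7 in glycolysis. The medians were then -0.15, -0.40 and 0.25, against 0.19 for the OXPHOS genes. These lists had longer transcripts, with median effective lengths of 2222, 1803 and 2419 bases against 424 for the OXPHOS genes. No difference between these lists and the OXPHOS genes was tested.

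Subunits of other large complexes are set beside the OXPHOS genes for scale. Of 78 mitochondrial ribosomal protein genes, 76 rose and none fell in edgeR's test (0 lower at an unadjusted p under 0.05 or in DESeq2), with a median of 1.42. For 95 genes whose symbols begin with Rpl or Rps and a number, 89 rose and 5 fell, with a median of 1.84, a list that also takes in a few kinases and other genes that are not ribosomal proteins. Of 39 proteasome subunits tested, 35 rose and none fell in the same test (again 0 by either measure), with a median of 1.15. With library totals 58 rose and 1 fell among the mitochondrial ribosomal protein genes, 73 rose and 5 fell among the Rpl and Rps genes, and 23 rose and 3 fell among the proteasome subunits. With the length trend removed 51, 62 and 25 rose and 4, 10 and 0 fell in edgeR's test. The medians were then 0.66, 0.56 and 0.48, against 0.19 for the OXPHOS genes.

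Among 16 regulators of mitochondrial biogenesis, 7 rose and 6 fell, where 34.1% and 36.8% of all genes did, with a median of 0.19. With library totals 2 rose and 9 fell, with a median of -0.48, and with the length trend removed 8 rose and 5 fell, with a median of 0.35. The coactivator Ppargc1a was at 5.70 ± 2.44 CPM (SD, n = 5) in WT and 0.981 ± 0.293 CPM (SD, n = 4) in Supt6-KO mice, a log2 fold change of -2.52 (SE 0.33). The nuclear receptor Esrrg had -3.34 (SE 0.25), while its relative Esrra had 1.37 (SE 0.17). Nrf1 and Gabpa, which encode transcription factors known to act on OXPHOS promoters, had 0.16 (SE 0.16) and 0.21 (SE 0.13) and did not pass the test. Their direction depended on the scaling. Nrf1 was at -0.50 with library totals and 0.35 with the length trend removed, neither a call, whereas Gabpa was called lower with library totals, at -0.46 (adjusted p = 0.042 in edgeR's test), and higher with the length trend removed, at 0.77 (adjusted p = 0.00021 in edgeR's test). Gabpb1, the partner of Gabpa, had 0.97 (SE 0.11), Tfam, which packages mitochondrial DNA, had 0.78 (SE 0.12), and Tfb1m, a methyltransferase of the mitochondrial ribosome, had 1.64 (SE 0.18). The calls of Gabpb1 and Tfam were lost with library totals, at 0.28 (adjusted p = 0.086 in edgeR's test) and 0.078 (adjusted p = 0.58 in edgeR's test). With the length trend removed both were called higher, at 0.92 (adjusted p = 1.2e-05 in edgeR's test) and 1.11 (adjusted p = 4.3e-05 in edgeR's test). Ppargc1a, Esrra, Nrf1, Gabpa, Gabpb1 and Tfam are named outside the rule for list genes because of what they are known to do, after their values were seen.

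Promoter windows of the RefSeq annotation (GRCm38.p6), from 250 bases before to 50 bases after the start, were at hand for 67 of the 84 genes. They were searched on both strands for CGCATGCG (NRF1), CCGGAAG (GABP), AAGGTCA (ERR) and AAGATGGCG (YY1), none of which holds the letters of another. At least 1 of the 4 was found for 46.3% of the 67 OXPHOS genes, against 24.7% of 13008 tested genes with a window and 15.8% of 32851 windows in all. The GABP letters were found for 25.4% of the OXPHOS genes, 16.6% of the tested genes and 8.86% of all windows. The shares in the same order were 11.9%, 4.11% and 4.72% for the ERR letters, 10.4%, 2.81% and 1.4% for the YY1 letters, and 13.4%, 3.54% and 1.87% for the NRF1 letters. Of the 60 OXPHOS genes with a window that rose, 30 held at least 1 of the 4, as did 1 of the 7 others. A match of letters is a description and shows no binding.

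The windows below hold the 200 bases before the start, 5′ to 3′ on the reverse strand on which these genes lie, with matches in capitals. Cox6a1 (chr5:115348959-115349158) holds 2 of the motifs, Atp5l (chr9:44920743-44920942) the ERR letters and Uqcrh (chr4:116075071-116075270) the GABP letters, all 3 being genes that rose. Ndufa4 (chr6:11907451-11907650), with the largest rise with TMM factors, and Sdha (chr13:74350241-74350440), which fell, are set beside them and hold none of the 4 in this stretch.
Cox6a1: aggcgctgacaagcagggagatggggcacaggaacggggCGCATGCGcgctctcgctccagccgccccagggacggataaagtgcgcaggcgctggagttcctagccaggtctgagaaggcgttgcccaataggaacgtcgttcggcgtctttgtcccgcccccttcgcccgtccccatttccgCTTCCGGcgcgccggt
Atp5l: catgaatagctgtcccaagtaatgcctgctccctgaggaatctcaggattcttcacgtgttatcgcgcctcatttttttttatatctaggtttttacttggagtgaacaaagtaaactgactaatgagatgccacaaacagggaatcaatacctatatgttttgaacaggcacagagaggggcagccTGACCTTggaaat
Uqcrh: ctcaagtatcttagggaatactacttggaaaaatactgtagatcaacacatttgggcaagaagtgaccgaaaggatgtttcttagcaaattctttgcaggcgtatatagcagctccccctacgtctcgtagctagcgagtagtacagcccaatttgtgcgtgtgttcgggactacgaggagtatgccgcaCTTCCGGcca
Ndufa4: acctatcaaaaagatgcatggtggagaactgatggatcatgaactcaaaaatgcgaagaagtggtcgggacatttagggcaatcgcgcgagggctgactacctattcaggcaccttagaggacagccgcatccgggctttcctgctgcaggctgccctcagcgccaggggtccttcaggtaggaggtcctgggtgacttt
Sdha: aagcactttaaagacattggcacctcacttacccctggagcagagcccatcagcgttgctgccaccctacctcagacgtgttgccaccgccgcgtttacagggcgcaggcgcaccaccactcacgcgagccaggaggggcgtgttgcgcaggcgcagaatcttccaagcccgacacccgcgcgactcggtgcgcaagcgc
Beside these sequences stand log2 fold changes of 1.49 for Cox6a1, 2.04 for Atp5l, 2.37 for Uqcrh, 2.76 for Ndufa4 and -0.91 for Sdha.

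Markers of other cells of the skin also differed between the groups, where 34.1% of all genes rose and 36.8% fell with TMM factors. All 7 cartilage markers fell, their sum being 326 to 790 CPM in WT and 63.9 to 88.6 CPM in Supt6-KO mice, with Acan the most abundant. Hair markers fell in 7 of 8 cases, but only 4 of the 8 were below all WT mice. Their sum was 1982, 163, 670, 399 and 5.45 CPM in WT and 15.7, 47.4, 63.6 and 73.7 CPM in Supt6-KO mice, with Krt71 the most abundant, so that WT mouse 5 was below every Supt6-KO mouse. Adipocyte markers fell in 6 of 8 cases, sebocyte markers in 6 of 7, fibroblast markers in 4 of 7 and endothelial markers in 5 of 6. Neutrophil markers rose in 6 of 6 cases, their sum being 22.7 to 26.4 CPM in WT and 51.6 to 113 CPM in Supt6-KO mice, with Mmp9 the most abundant. Melanocyte markers rose in 6 of 6 cases and macrophage markers in 5 of 7, while the macrophage marker Csf1r fell. Other lists were mixed, with 1 higher and 3 lower of 5 T cell markers, 2 and 1 of 6 mast cell markers, 1 and 3 of 5 smooth muscle markers and 1 and 2 of 6 brown adipocyte markers. With library totals 3 neutrophil, 3 melanocyte and 2 macrophage markers rose, and all 7 fibroblast and all 8 adipocyte markers fell, beside 54.6% of all genes. No marker of these lists was at 0 in every mouse of a group, and the part of any of these cells in the OXPHOS levels was not tested.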

How the data were processed

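RNA was sequenced from the skin of 5 WT and 4 Supt6-KO mice. Per the labels, the submitters' processing notes name HISAT, Bowtie2 2.3.4.3, RSEM 1.3.1, DESeq2 1.4.5 and mm10. The authors deposited RSEM estimated counts per gene, not normalized between mice, of which 9.00% were not whole numbers (tolerance 1e-09). The authors also deposited TPM for 6 mice, used here only for levels between genes and for effective lengths. Such lengths were the ratio of estimated count to TPM, scaled on genes of 3000 to 6000 bases, and were to hand for 90.4% of genes. TPM depend on the length model, and short genes on the fragment size.

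Of the gene identifiers, 17917 were matched to RefSeq GRCm38.p6, giving the older Atp5 symbols, and 26 were not. Estimated counts were rounded, genes summing to under 10 counts in the 9 mice were dropped, and groups were compared with edgeR 4.0.16 (R 4.3.3; TMM factors, quasi-likelihood test, no covariate), with Benjamini-Hochberg adjustment over 16426 genes and a threshold of 0.05. The SE is the log2 fold change divided by the square root of F. The labels do not say that the mice of a group were independent in other respects, so p-values measure the spread between these mice. Depth was 29627341 to 30967107 counts per mouse, and counting error does not cover the spread between mice.

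Alternatives were library totals, upper-quartile factors, DESeq2 1.42.0, 2 other filters, dropping the 50 most abundant genes, the replicate number as a block, a lowess correction for length and each mouse left out. The scripts were tested on simulated data. The members and lists were chosen with earlier results of these data known. Named genes are, in each complex, the 2 highest and 2 lowest by log2 fold change with a mean of at least 1 CPM and the most abundant, the catalytic subunits and isoform pairs, and in lists the highest, lowest and most abundant, of which only some are printed, and 1 gene under this rule is not reported here. Symbols lying on shared sequence (Ndufb4 and Ndufb4c, Atp5g1 to Atp5g3) may share reads. Mitochondrially encoded genes, 3 assembly factors and 2 markers of the lists were not analysed here. Labels and study differ on the tissue and on the RNA extraction kit.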

Additional observations from a re-analysis of the deposited data

Results flagged for a closer look

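Of 94 groups of mice examined for a mouse far from the others of its group, 2 held one, and chance marks about 1 in 20 groups. Cox6b2 was at 1.05 CPM in Supt6-KO mouse 3, against a median of 0.871 CPM over the 4 Supt6-KO mice. The summed level of the 4 complex II genes was 561 CPM in Supt6-KO mouse 1, against a median of 659 CPM.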

How the results depend on the processing

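With library totals, 2771 genes in all rose, 1470 of them by at least 2-fold, and 6802 fell by at least 2-fold, while 9 OXPHOS genes fell and 31 rose and 4 fell by at least 2-fold. The medians were then 0.77 over the OXPHOS genes and 0.79, -0.24, 0.75, 0.76 and 1.05 over complexes I to V. With the length trend removed, 34 OXPHOS genes rose and 17 fell, 8 and 6 of them by at least 2-fold, with medians of 0.19 over all 84 and 0.19, -0.39, 0.55, -0.017 and 0.34 over complexes I to V. The cause of the length trend was not tested. With upper-quartile factors the complex II median was 0.37 and Ndufv3 was at -0.021. Calls rose in 48.1% of cases among all genes called with TMM factors and in 23.6% with library totals.

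Log2 fold changes of named genes that changed sign with library totals were -0.65 for Ndufv3, -0.55 for Ndufa10, -0.10 for Sdhb, -0.38 for Sdhc, -0.41 for Uqcrc1, -0.34 for Atp5a1, -0.0019 for Atp5b, -0.054 for Ndufs7, -0.31 for Ndufv1, -0.23 for Cox6b2, -0.37 for Acad9, -0.21 for Yy1, -0.23 for Gapdh, -0.50 for Nrf1 and -0.46 for Gabpa. With the length trend removed they were -1.30 for Ndufv3, -0.64 for Ndufa10, -0.29 for Sdhb, -0.49 for Sdhc, -0.18 for Uqcrc1, -0.30 for Ndufs3, -0.55 for Ndufs7, -0.10 for Ndufv1, -0.02 for Cox6a1, -1.11 for Cox6b2, -0.10 for Cox8a and -0.19 for Gapdh. Ndufs1 was at 0.06 with DESeq2.

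With each mouse left out in turn, 72 to 73 OXPHOS genes rose and 2 to 4 fell, 58 to 62 and 1 to 2 of them by at least 2-fold, the 2 being without Supt6-KO mouse 4. The medians were 1.41 to 1.54 over the OXPHOS genes, and 1.40 to 1.58, 0.39 to 0.51, 1.35 to 1.49, 1.40 to 1.54 and 1.66 to 1.84 over complexes I to V, and Supt6 was at -1.66 to -1.47. Cox4i2 lost its call without Supt6-KO mouse 1 (adjusted p = 0.056) and without WT mouse 1 (adjusted p = 0.066), and Sdhc lost its call, in edgeR's test, in 6 of the 9 cases. The sign also changed for 5 named genes, with ranges of -0.22 to 0.069 for Ndufs1, -0.0066 to 0.16 for Ndufv3, -0.50 to 0.089 for Cox7a1, -0.033 to 0.57 for Gapdh and -0.016 to 0.25 for Nrf1, where the turn came without Supt6-KO mouse 4 in the last 3.

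No clear pairing by replicate number was seen, though 4 pairs are too few to exclude it. The deviations of same-numbered mice correlated at 0.128 on average over 4 pairs, from -0.011 to 0.243. Those of other mice correlated at -0.023 over 12, from -0.227 to 0.255. With the replicate number as a block, over mice 1 to 4 of each group, 72 OXPHOS genes rose and 4 fell, with a median of 1.41. Over all genes the block gave 5271 higher and 5803 lower calls, against 5608 and 6050 without it. DESeq2, the other filters and the removal of the 50 most abundant genes left 72 to 74 OXPHOS genes higher and 3 lower. Depth limits mainly rare members such as Cox6b2.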
